A study of Mus musculus with 4 samples.

Results

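The genes described here encode the heavy and light chains of immunoglobulin, together with Jchain, the joining chain that links immunoglobulin subunits in secreted IgM and IgA. They were chosen by symbol as the V, D, J and constant genes of the heavy, kappa and lambda loci, and kept where at least 1 of 4 libraries had a value above 0. Of 394 such genes in a table of 49490, 69 were kept and the other 325 were at 0 in all 4 libraries. The values that chose them were these detections and are not a finding. At the edge of the rule, 7 members rested on 1 read in all, each in a library labelled knockout and worth 0.973 or 0.980 normalized counts, and the genes just outside it had none.

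The series compared cytotoxic T cells, which carry CD8, from mouse spleens and lymph nodes after activation in vitro. The design text names them Irf8fl/fl, labelled WT, and Irf8-/-, labelled Irf8 knockout, with 2 polyadenylated RNA libraries per group. Irf8 encodes interferon regulatory factor 8. The sources used here do not give the agent that deleted the allele, the strain, the age of the mice or the stimulus and its duration. Nor do they say that replicate libraries were of separate mice or cultures, and p-values therefore measure the spread between these libraries alone, which may be technical. Reads counted over the genes of the table, recovered from the normalized values, came to 58899365 to 59724952 per library.

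The targeted gene went against the labels. Irf8 had 6364 and 6081 normalized counts in the libraries labelled WT, against 89508 and 90222 in those labelled knockout, 14.4-fold higher in the latter (log2 fold change 3.85, SE 0.04, limma adjusted p = 4.32e-08). The values of Irf8 are gene totals and do not show which exons the reads came from. Groups are therefore called "labelled WT" and "labelled knockout", and a direction is stated by label only. All 14 listed T cell markers had at least 7032 normalized counts in every library, and 13 were lower where labelled knockout, such as Cd3d with 53754 and 55412 against 30847 and 31628. Trac, the T cell receptor gene that did not pass, had 104094 and 103284 against 104596 and 101353.

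In B cells, the RAG recombinase joins a V segment, for the heavy chain also a D segment, to a J segment, and the joined exon is spliced to a constant gene. The first constant genes used are Ighm for the heavy chain and Igkc or an Iglc gene for the light chain, of which kappa is the usual choice in the mouse. Constant and J regions can also be transcribed from a locus that is not rearranged, as germline transcripts. T cells rearrange their receptor genes instead. Gene totals of this kind cannot tell a rearranged transcript from a germline one.

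The J segments are short and carry much of the contrast described below, so the letters that differ between them are shown first. Each is the GENCODE M21 transcript on GRCm38, 5′ to 3′, with capitals for the stretch that encodes the conserved tryptophan (heavy chain) or phenylalanine (light chain) and the glycines after it. For the heavy chain, all J segments of the table are given.
Ighj1: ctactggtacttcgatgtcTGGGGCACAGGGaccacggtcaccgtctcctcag
Ighj2: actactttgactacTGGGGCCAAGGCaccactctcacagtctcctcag
Ighj3: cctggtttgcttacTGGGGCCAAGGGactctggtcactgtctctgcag
Ighj4: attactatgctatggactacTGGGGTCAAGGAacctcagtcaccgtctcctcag
For the light chains, the most abundant kappa J segment and the lambda J segments with reads are given.
Igkj1: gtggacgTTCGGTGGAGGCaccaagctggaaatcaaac
Iglj1: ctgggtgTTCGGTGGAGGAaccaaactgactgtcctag
Iglj2: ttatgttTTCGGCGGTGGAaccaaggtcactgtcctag
Iglj3: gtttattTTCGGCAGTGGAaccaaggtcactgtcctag
Iglj3p: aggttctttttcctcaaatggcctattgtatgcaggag
The heavy chain motif searched was the codon TGG followed by GGN, any codon and GGN, and the light chain motif was TTC followed by NGN, any codon and GGN. Other transcripts were searched on both strands for the background. The heavy chain motif stood in 8.33% of 84 annotated J segments, those of the T cell receptor included, and in the first 50 bases of 1.52% of 140878 other transcripts. The light chain motif stood in 25.0% of the J segments and in 2.48% of the other transcripts. Iglj3p, which lies between Iglj3 and Iglc3, did not hold the light chain motif. Iglj2 and Iglj3 were 89.5% identical over their aligned bases, and Ighj1 and Ighj2 79.2%, so some reads within them may fit more than a single segment.

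Immunoglobulin RNA was higher in the libraries labelled knockout. The summed level of the 69 members was 8767 and 8345 normalized counts in the libraries labelled WT, against 57680 and 58322 in those labelled knockout, or 8556 ± 298 against 58001 ± 453 (SD, n = 2 each). The groups did not overlap, and the sum was 6.78-fold higher in the libraries labelled knockout. An exact two-sided permutation test gave p = 0.333, the smallest that 2 libraries against 2 allow. The members took 146 and 137 RPM, reads relative to the library's total of counted reads, where labelled WT, and 996 and 1007 where labelled knockout. In bulk RNA, fewer cells of a type and less RNA per cell cannot be told apart.

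Of the 69 members, 20 reached 10 normalized counts in at least 2 libraries and were tested, and 19 of these were higher in the libraries labelled knockout (limma, Benjamini-Hochberg adjusted p under 0.05), against 19.9% of all 18378 genes tested. None was lower by limma, also at an unadjusted p under 0.05, nor by edgeR or DESeq2 on the same genes, against 13.4% of all genes. Without that filter, limma called 22 members higher (12.7% of 27159 genes) and 1 lower (7.75% of genes), and edgeR called 18 higher (11.9%) and none lower (8.24%). The count cannot be read as that of all members, since 13 of the 20, against 3.84% of all genes tested, passed the filter only through the libraries labelled knockout and so had to differ. The filter did not decide the outcome for the 6 members at 10 or more in both libraries labelled WT, which were Ighm, Ighd, Igkc, Igkj1, Iglc2 and Iglc3, and all 6 were higher. The median log2 fold change over the 20 was 4.07, or 3.96 with members at 0 reads in a group set at their bound, beside 0.02 over all genes tested. With libraries centred on their medians the latter was -0.28, with 2389 genes called higher and 7210 lower in place of 3662 and 2469. Upper-quartile scaling in edgeR gave 3248 and 3658. The 19 immunoglobulin calls kept their direction under both.

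Leaving out either library labelled WT kept the immunoglobulin calls. Leaving out either library labelled knockout reduced them, and calls over all genes fell as well. The same members were lost without either of these, namely Iglc1, Ighj2, Iglj1, Iglv1, Ighj4, Jchain, Ighj3, Iglj3p and Igkv6-15. Their log2 fold changes changed little as a set, from 3.38 (Ighj3) to 7.72 (Iglc1) with all 4 libraries. They ran from 3.12 (Jchain) to 7.62 (Iglc1) without the labelled knockout replicate 1. Without the labelled knockout replicate 2 they ran from 3.31 (Ighj3) to 7.83 (Iglc1). The 10 that remained in each such fit were Ighm, Ighd, Ighj1, Igkc, Igkj1, Igkv14-111, Iglc2, Iglc3, Iglj3 and Iglv3.

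**Figure D1:**
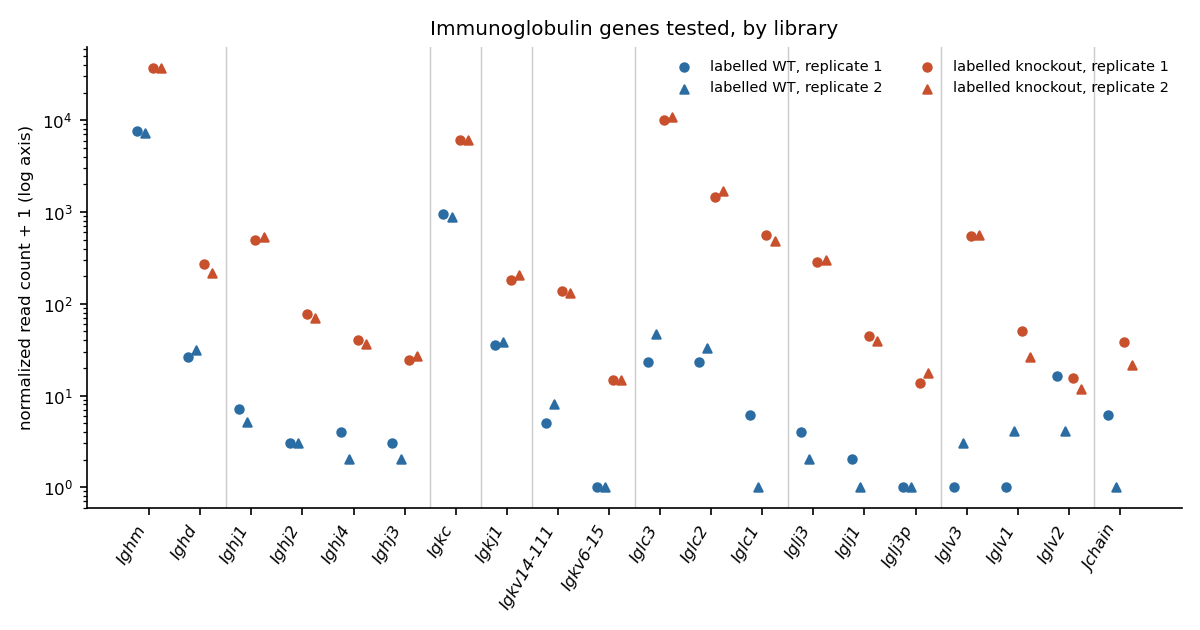
Normalized read count plus 1 (log axis) of the 20 immunoglobulin genes tested, in each of 4 libraries, ordered by locus and segment type. Points of the libraries labelled knockout lie above those labelled WT for each gene except Iglv2.

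The other 49 members were not tested, and 42 of them had at most 20 reads over the 4 libraries together, with a maximum of 28. Taking all 69, the groups did not overlap in 32 with the higher values in the libraries labelled knockout, a share of 46.4% beside 29.3% of all genes with a value above 0. They did not overlap in the other direction in 4 members, or 5.80% beside 26.8%. For Iglj2, with 1 read in every library, and Igkv9-124, with 6 reads in replicate 1 of each group, the lack of overlap came from scaling. Reads were found only in libraries labelled knockout for 31 members, or 44.9% beside 10.3% of genes, and only in those labelled WT for 8, or 11.6% beside 5.68%. Sparse detection was common among the members, since 24 had reads in 1 library only and 34 had at most 10 reads in all.

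**Figure D2:**
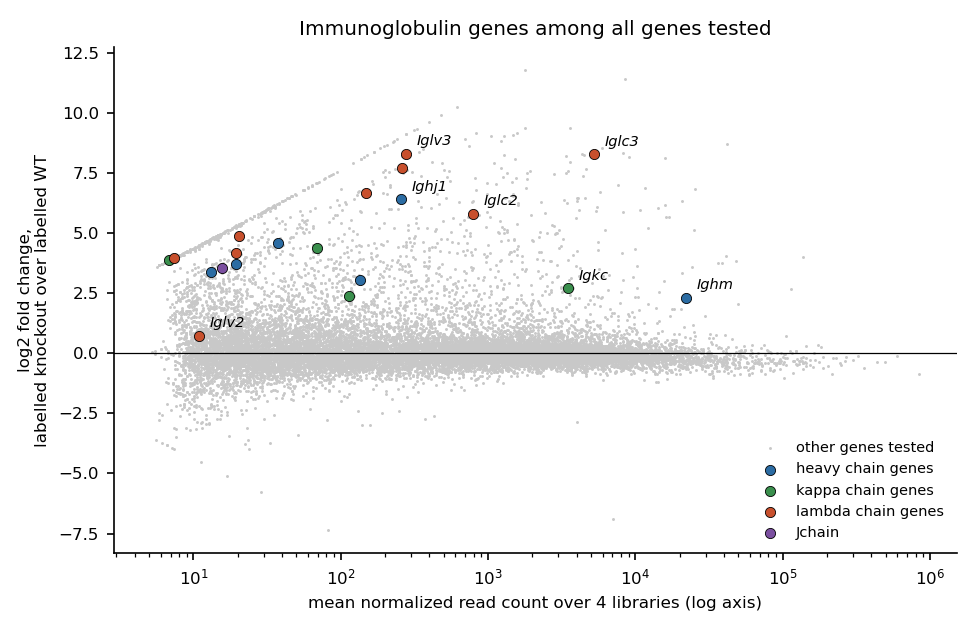
Log2 fold change (libraries labelled knockout over labelled WT) of every gene tested against its mean normalized read count over 4 libraries (log axis), with immunoglobulin genes coloured by locus. Lambda genes reach 8.32 (Iglv3) and 8.30 (Iglc3), while Ighm and Igkc, the most abundant heavy and kappa genes, lie at 2.32 and 2.72.

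Among the heavy chain constant genes, reads were nearly confined to Ighm, the mu chain of IgM, at chr12:113418558-113422730 on the minus strand of mm10. Ighm had 7600 and 7238 normalized counts in the libraries labelled WT, against 37152 and 37002 in those labelled knockout. The groups were far apart beside the spread within each, with a log2 fold change of 2.32 (SE 0.04, limma adjusted p = 2.99e-07). Ighd, the delta chain of IgD at chr12:113406604-113416324 on the minus strand, had 25.4 and 30.6 against 269 and 216, a log2 fold change of 3.07 (SE 0.25, limma adjusted p = 2.54e-04). Ighd lies downstream of Ighm and is expressed from the same primary transcript by splicing. Ighm took 99.3% to 99.7% of heavy constant reads in each library.

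The constant genes of the switched isotypes, Ighg1, Ighg2b, Ighg2c, Ighg3, Igha and Ighe, were at 0 in all 4 libraries. With 0 reads, up to 3 per library would remain undetected, a floor that covers counting error only. On the RPKM scale, which also divides by exon length, the level of Ighm was 67.2 and 62.9 where labelled WT and 340 and 339 where labelled knockout, and that of Ighd was 0.22 and 0.26 against 2.45 and 1.96. On this scale Ighm was far above Ighd in every library.

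The 4 heavy J segments, which lie just upstream of Ighm, were all called higher. All 4 passed the filter only through the libraries labelled knockout and so had to differ. Ighj1 had 6.11 and 4.08 normalized counts in the libraries labelled WT, against 489 and 532 in those labelled knockout (log2 fold change 6.41, SE 0.30, limma adjusted p = 2.16e-05). Ighj2 had 2.04 in each library labelled WT and 76.4 and 69.1 in those labelled knockout, a ratio of 35.7 with a counting interval of 13.6 to 133. Ighj4 gave a ratio of 18.2 (6.82 to 68.5) and Ighj3 one of 16.3 (5.27 to 81.6), each from 3 or 4 reads in the libraries labelled WT. The Ighj4 ratio was 36.3 without the labelled WT replicate 1.

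The 4 J segments were unequal in the libraries labelled knockout, where Ighj1, the segment farthest from Ighm, took most of the heavy J reads. Its share was 77.8% (exact binomial interval 74.4% to 81.0%) of 641 reads and 80.3% (77.1% to 83.2%) of 681 reads. The libraries labelled WT held 13 and 8 heavy J reads, of which Ighj1 took 6 and 4, too few to set beside the other shares. The summed heavy J level was 13.2 and 8.17 against 628 and 663, 60.3-fold higher, a larger ratio than the 5.01-fold of the heavy constant genes.

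The D segments, which encode part of the heavy chain's antigen contact, gave almost no reads. Ighd4-1, the D segment nearest to the J segments, had 1.96 and 1.95 normalized counts in the libraries labelled knockout and 0 in those labelled WT. Ighd2-3, Ighd2-4, Ighd2-7 and Ighd1-1 each rested on a read in 1 library labelled knockout. The other 15 of the 20 D segments in the table were at 0. The D segments detected are 11 to 23 bases long.

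Heavy V segments moved otherwise than the rest of the locus. Of 183 in the table, 17 had reads, with 11 and 5 detected where labelled WT and 9 and 5 where labelled knockout, and none reached the level for testing. Their sum was 51.9 and 22.5 normalized counts in the libraries labelled WT, against 33.3 and 13.6 in those labelled knockout, so that the groups overlapped (ratio 0.63, exact permutation p = 0.667). Without the labelled WT replicate 1 the ratio was 1.04. The counted reads were 73 against 48, a ratio of 0.630 with a counting interval of 0.428 to 0.919 that leaves out the spread between libraries.

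The 5 heavy V segments with the highest means stayed under 10 normalized counts in each library. Ighv6-3 had 9.16 and 0 where labelled WT and 7.84 and 4.87 where labelled knockout. Ighv6-4 had 5.09 and 2.04 against 7.84 and 0.97, and Ighv14-3 had 0 and 9.19 against 3.92 and 0. In these 3 the groups overlapped. Ighv1-73, with 5.09 and 7.15 against 0 in both, and Ighv1-23, with 6.11 and 3.06 against 0 in both, had reads only in the libraries labelled WT. Ighv1-73 was the member called lower by limma without the filter (log2 fold change -2.82, adjusted p = 0.0440), and edgeR without the filter called none lower.

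**Figure D3:**
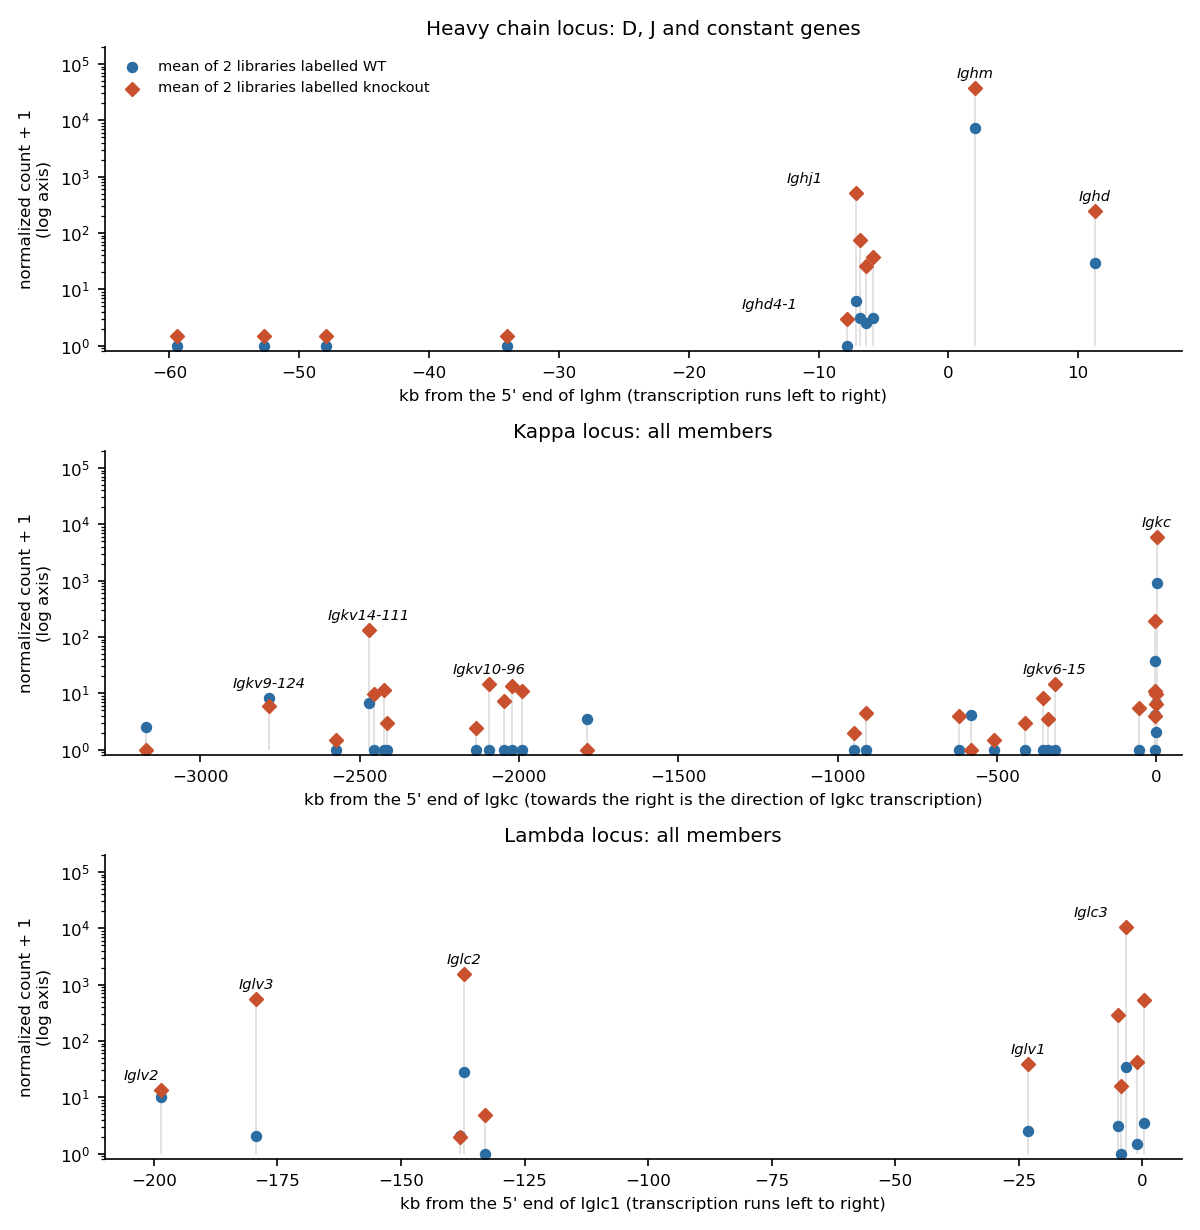
Mean normalized read count plus 1 (log axis) of the members along each locus, as distance in kb from the 5′ end of Ighm, Igkc or Iglc1, with circles for the mean of 2 libraries labelled WT and diamonds for 2 labelled knockout. In the heavy panel, which leaves out the V segments, the high values are those of the J and constant genes, in kappa those of Igkc, Igkj1 and a stretch of V segments around Igkv14-111, and in lambda they run from Iglv3 to Iglc1.

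The kappa locus, on chromosome 6, has a single constant gene. Igkc, at chr6:70726435-70726966 on the plus strand, had 941 and 885 normalized counts in the libraries labelled WT, against 6017 and 6065 in those labelled knockout. It was 6.61-fold higher, with a log2 fold change of 2.72 (SE 0.06, limma adjusted p = 1.07e-06). Igkj1, the J segment farthest from Igkc, had 34.6 and 37.8 against 178 and 205 (log2 fold change 2.37, SE 0.23, limma adjusted p = 5.38e-04). Both were detected in every library at levels where the filter did not decide the outcome.

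The other kappa J segments were too low to test. Igkj2 had 6 reads in the libraries labelled WT, against 20 in those labelled knockout, a ratio of 3.19 (1.24 to 9.72). Igkj5 had 9.16 and 2.04 normalized counts against 4.90 and 5.84, with the groups overlapping. Igkj1 took 75.6% and 82.2% of kappa J reads where labelled WT and 86.3% and 89.0% where labelled knockout, so it led in every library. The kappa J sum was 4.77-fold higher.

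Unlike the heavy V segments, kappa V segments gained reads in the libraries labelled knockout. Of 160 in the table, 3 and 4 were detected where labelled WT and 15 and 17 where labelled knockout. Their sum was 13.2 and 26.5 normalized counts against 254 and 228, a ratio of 12.1, and 18.2 without the labelled WT replicate 2. Counted reads were 39 against 493, with a counting interval of 8.73 to 17.2 for the ratio.

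Igkv14-111, at chr6:68256389-68256869 on the plus strand, was the most abundant V segment of the locus. It had 4.07 and 7.15 normalized counts in the libraries labelled WT, against 138 and 128 in those labelled knockout (log2 fold change 4.38, SE 0.40, limma adjusted p = 3.96e-04). It alone made up 54.4% and 56.4% of kappa V reads in the libraries labelled knockout. Igkv6-15 had 13.7 and 13.6 in the libraries labelled knockout and 0 in those labelled WT, and was at least 4.47-fold higher against a floor of 3 reads per library (limma adjusted p = 0.0312). Igkv10-96 (20.6 and 6.81) and Igkv10-94 (16.7 and 7.79) were likewise at 0 where labelled WT, at least 4.48-fold and 3.996-fold higher. Igkv9-124 had 6.11 and 8.17 against 5.88 and 3.89, and was too low to test. Its counted reads were 6 and 8 against 6 and 4, so the values of replicate 1 differ between groups by scaling only. With no filter, limma also called Igkv10-94, Igkv10-96, Igkv1-110 and Igkv2-109 higher, with log2 fold changes of 3.22 to 3.70, and edgeR with no filter called none of the 4 (adjusted p of 0.0552 to 0.0904).

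The kappa V reads of the libraries labelled knockout were concentrated in a stretch of the locus, a pattern picked out after the values were seen and given as a description. The 480.4 kb from Igkv14-111 to Igkv19-93, chr6:68256389-68736780, hold 24 of the 160 kappa V segments in the table and end 1990 kb before Igkc. These took 84.6% (79.6% to 88.7%) and 79.5% (73.7% to 84.5%) of kappa V reads in the libraries labelled knockout. Besides Igkv14-111, the 8 other segments detected in the stretch had 78 and 54 reads in the libraries labelled knockout and 0 in each labelled WT. Igkv10-94, Igkv10-95 and Igkv10-96 are 94.2% to 97.1% identical over their aligned bases, so that reads could be divided among them.

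Summed over its members, the lambda locus on chromosome 16 was 171-fold higher, beside 5.07-fold for the heavy and 6.64-fold for the kappa locus. Iglc3, at chr16:19065230-19065681 on the minus strand, had 22.4 and 46.0 normalized counts in the libraries labelled WT, against 10117 and 10751 in those labelled knockout. Its log2 fold change was 8.30 (SE 0.32, limma adjusted p = 3.69e-05). The ratio of means was 305, and 466 without the labelled WT replicate 2, since the low values of that group set its scale. On the RPKM scale the level of Iglc3 was 0.83 and 1.67 against 387 and 411, so that it was under Ighm in the libraries labelled WT and above it in those labelled knockout.

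Iglc2 had 22.4 and 31.7 normalized counts against 1446 and 1684 (log2 fold change 5.82, SE 0.21, limma adjusted p = 8.20e-06). Iglc1 had 5.09 and 0 against 559 and 484, a ratio of 205 with a counting interval of 87.4 to 631, and 103 without the labelled WT replicate 2. Its log2 fold change of 7.72 ranged from 6.42 to 9.03 with 1 library left out, the extremes coming without a library labelled WT. Iglc4 had 7.79 normalized counts in the labelled knockout replicate 2 and 0 elsewhere. Iglc2 and Iglc3 are 95.4% identical, against 70.3% for Iglc1 and Iglc3, so the division of reads between Iglc2 and Iglc3 is uncertain while their sum is less so. The summed lambda constant level was 49.9 and 77.6 against 12122 and 12926, 197-fold.

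Of the lambda J segments, 3 were called higher, and Iglj2 was not tested. These 3 also passed the filter only through the libraries labelled knockout. Iglj3, beside Iglc3, had 3.05 and 1.02 normalized counts against 286 and 300 (log2 fold change 6.68, SE 0.45, limma adjusted p = 1.09e-04), a ratio of 144 (55.8 to 529) that was 287 without the labelled WT replicate 1. Iglj1, beside Iglc1, had 1.02 and 0 against 43.1 and 38.0, a ratio of 79.5 (13.9 to 3178) that rests on 1 read where labelled WT and was 39.8 without the labelled WT replicate 2. Iglj3p was at 0 in the libraries labelled WT and had 12.7 and 16.5 in those labelled knockout, at least 4.79-fold higher.

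Iglj2, which lies wholly inside the annotated Iglc2, had about 1 normalized count in every library. Whether reads over it were given to Iglc2 is not stated in the sources used here. Iglj3 took 83.4% and 84.4% of lambda J reads in the libraries labelled knockout, and Iglc3 took 83.5% and 83.2% of lambda constant reads. These shares are not alike in what they count, since reads over Iglj2 may stand under Iglc2. The division between Iglc2 and Iglc3 is also uncertain. The lambda J sum was 97.9-fold higher, and 171-fold without the labelled WT replicate 1.

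The lambda V segments number 3 in the table, and they did not move alike. Iglv3, at chr16:19241207-19241690 on the minus strand, had 0 and 2.04 normalized counts in the libraries labelled WT, against 548 and 563 in those labelled knockout. Its log2 fold change was 8.32 (SE 0.57, limma adjusted p = 1.12e-04), between 7.51 and 9.12 with 1 library left out, and its ratio of 545 had a counting interval of 150 to 4502 from 2 reads where labelled WT, and was 272 without the labelled WT replicate 1. Iglv1 had 0 and 3.06 against 49.97 and 25.3, a ratio of 24.6 (8.11 to 122), and 12.3 without the labelled WT replicate 1. Its log2 fold change of 4.18 ranged from 3.17 to 5.19 with 1 library left out.

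Iglv2 was the member tested that did not pass. It had 15.3 and 3.06 normalized counts in the libraries labelled WT, against 14.7 and 10.7 in those labelled knockout, with the groups overlapping (log2 fold change 0.74, SE 0.83, limma adjusted p = 0.543). Without the labelled WT replicate 2 its log2 fold change was -0.26. Iglv1 and Iglv2 are 96.7% identical, so that reads may have been divided between them, whereas Iglv3 is 61.4% identical to Iglv1. Iglv3 took 89.4% and 94.0% of lambda V reads in the libraries labelled knockout.

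Jchain, at chr5:88519809-88527891 on the minus strand, had 5.09 and 0 normalized counts in the libraries labelled WT, against 37.2 and 20.4 in those labelled knockout. The groups did not overlap, and the ratio was 11.3 with a counting interval of 4.58 to 36.1, and 5.67 without the labelled WT replicate 2. Its log2 fold change of 3.54 (SE 1.03, limma adjusted p = 0.0411) ranged from 2.23 to 4.84 with 1 library left out. The call was lost with no filter on low values (adjusted p = 0.0697). Jchain was the only member in the RefSeq promoter table, and its promoter window of 300 bases on GRCm38.p6 held no match on either strand to the octamer ATGCAAAT of immunoglobulin promoters, which stood in 1.74% of 32851 promoters. It held none to TATAAA (13.6% of promoters) and none to an Ets-IRF composite element, GGAA and GAAA with any 2 bases between (2.72%). The E-box CANNTG, which reads the same on both strands, matched at 4 places, and 72.3% of promoters hold it.

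**Figure D4:**
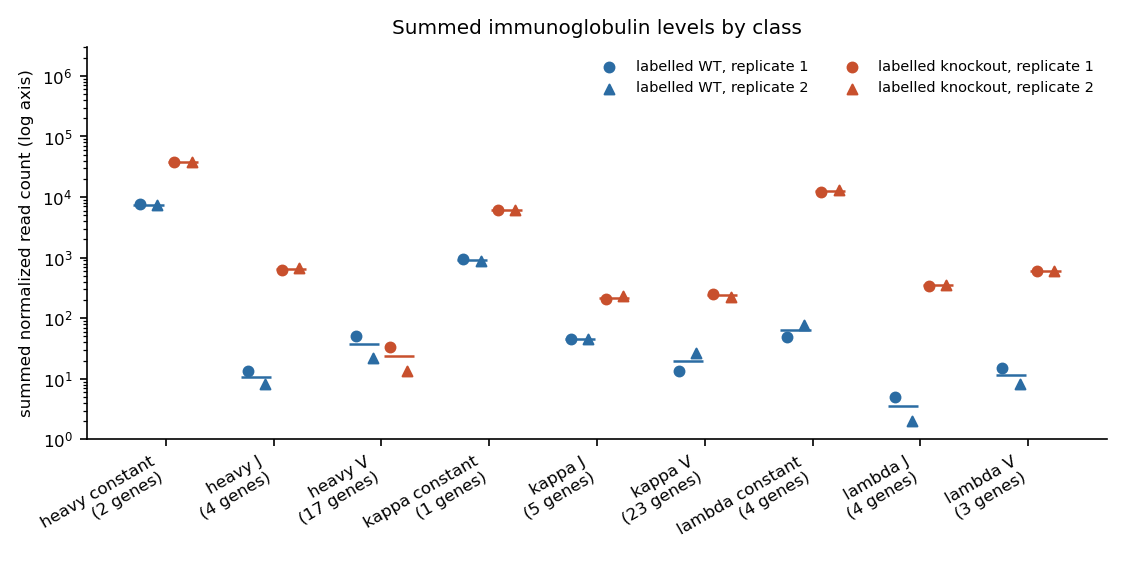
Summed normalized read count (log axis) of each class of immunoglobulin gene in 4 libraries, with a bar at each group's mean of 2. Heavy V is the class in which the groups overlap, and the ratio between groups is largest for lambda constant (197) and lambda J (97.9).

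The make-up of the light chain RNA differed between the groups as well as its amount. Lambda genes gave 5.03% (exact binomial interval 3.74% to 6.60%) and 8.06% (6.40% to 9.98%) of light chain constant reads in the libraries labelled WT. In the libraries labelled knockout they gave 66.8% (66.1% to 67.5%) and 68.1% (67.4% to 68.7%). The log2 ratio of summed lambda constant genes to Igkc was -3.88 ± 0.51 (SD, n = 2) where labelled WT and 1.05 ± 0.06 where labelled knockout, a difference of 4.93. The exact permutation p of 0.333 was the smallest that the design allows. As a share of all member reads, lambda genes moved from 0.801% and 1.05% to 22.7% and 23.8% while kappa genes stayed between 11.2% and 11.5%, and heavy chain genes went from 87.7% and 87.5% to 66.0% and 65.0%.

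V segments were a small part of the reads in every library, at 0.917% and 0.685% of member reads where labelled WT and 1.56% and 1.44% where labelled knockout. Per kilobase, the summed heavy V level was 0.469% and 0.195% of the level of Ighm alone in the libraries labelled knockout. The summed kappa V level was 6.16% and 5.45% of that of Igkc, and the summed lambda V level 6.18% and 5.69% of that of all Iglc genes. The libraries labelled WT had 3.63% and 1.58% for the heavy locus, 1.95% and 4.44% for kappa, and 42.9% and 14.1% for lambda, the last of these from 15 and 8 V reads.

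Genes that assemble, transcribe and secrete immunoglobulin were mixed. Counts of the main fit for this and the other lists stand beside 19.9% of all genes tested called higher and 13.4% called lower. These shares do not apply to the other settings. Without a library labelled knockout, calls over all genes were fewer in both directions. Of 27 tested, 17 were higher, 3 lower and 7 did not pass (limma), with a median log2 fold change of 0.52. Median centring gave 11 higher and 6 lower, beside 2389 higher and 7210 lower of all 18378 genes tested. Leaving out the labelled knockout replicate 1 or 2 gave a median of 0.40 or 0.65. The transcription factor Tcf4 (log2 fold change 6.04), Xbp1, a factor of secretory cells (1.51), and Mzb1, a chaperone of IgM assembly (8.27), had the smallest adjusted p among those higher. Mzb1 had 5.09 and 10.2 normalized counts in the libraries labelled WT, against 2594 and 2495 in those labelled knockout.

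The 3 lower genes of that list were the lymphoid factors Ikzf3 (log2 fold change -0.49) and Tcf3 (-0.27) and Prdm1 (-0.51), a factor of plasma cells and effector T cells. The recombinase genes were almost undetected, with Rag1 at 0 in the libraries labelled WT and at 0 and 2.92 in those labelled knockout, and Rag2 at 0 and at 0 and 0.973. Dntt, the terminal transferase that adds bases at V(D)J joints, had 138 and 69.4 against 8005 and 7844 (log2 fold change 6.32).

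Genes of B cell receptor signalling were mostly higher. Of 26 tested, 19 were higher, 1 lower and 6 did not pass, with a median of 0.82. This median was 0.90 without either library labelled knockout. Syk, the kinase that binds the receptor's signalling chains, had a log2 fold change of 5.63 and the kinase Lyn one of 3.21. Cd79b, a signalling chain of the receptor, had 138 and 134 normalized counts against 1112 and 1113 (log2 fold change 3.02). Its partner Cd79a did not pass, with 40.7 and 27.6 against 22.5 and 66.2. Malt1, an adaptor protease, was the lower gene (-0.25).

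Receptors that bind immunoglobulin or resemble such receptors moved in both directions, with 6 of 16 tested higher, 2 lower and 8 not past the test (median 1.31). The median was 1.30 without the labelled knockout replicate 1 and 1.36 without the labelled knockout replicate 2. The higher ones with the smallest adjusted p were Fcer1g, the signalling chain of Fc receptors (log2 fold change 2.74), Fcrla (7.98) and Fcgrt, the neonatal Fc receptor (1.53). The lower ones were Fcgr1, a receptor for IgG (-1.56), and Fcrl6 (-0.84).

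Genes listed as standing beside the immunoglobulin loci were called about as often as genes in general. Their positions in the mouse genome were not checked, so some may lie elsewhere. Of 16 tested, 3 were higher (Top3b 0.35, Brf1 0.23 and Pacs2 0.44 on the log2 scale), 3 lower (Tmem121 -0.74, Rpia -0.37 and Zfp280b -0.25) and 10 did not pass. Under median centring 9 were lower, with Brf1 at -0.07, beside 7210 lower of all 18378 genes tested. The median log2 fold change of the list was 0.08 without either library labelled knockout. Adam6b, which lies in the heavy chain locus, had 0 in the libraries labelled WT, against 9.80 and 26.3 in those labelled knockout, and the neighbouring Adam6a had 2.94 and 1.95 in the latter.

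**Figure D5:**
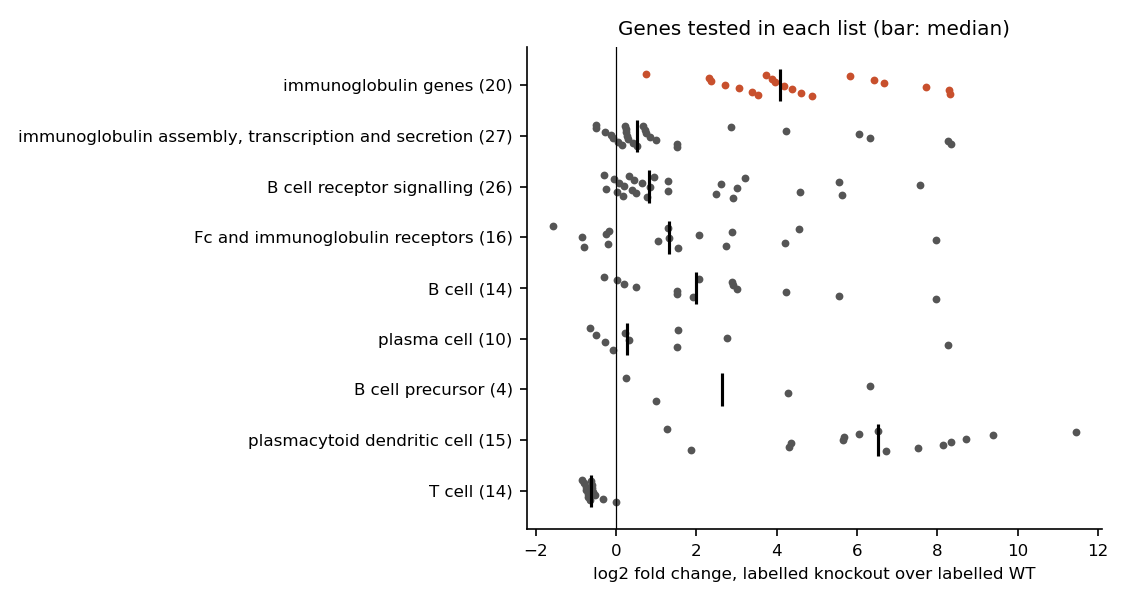
Log2 fold change (libraries labelled knockout over labelled WT) of each gene tested in the immunoglobulin set and in 8 other gene lists, with a bar at each median and the number of genes in brackets. The immunoglobulin median of 4.07 lies between the B cell median of 1.98 and the plasmacytoid dendritic cell median of 6.53, and the T cell median is -0.63.

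Markers of some other cell types moved with the immunoglobulin genes and those of others were mixed or lower. Their part in the result was not tested. Of 14 B cell markers tested, 7 were higher, none lower and 7 did not pass, and the 16 listed summed to 4880 and 5106 normalized counts in the libraries labelled WT, against 15947 and 15917 in those labelled knockout. Without a library labelled knockout 3 or 4 were higher. The higher ones with the smallest adjusted p were Fcrla, an intracellular Fc receptor homologue with 22.4 and 33.7 against 7216 and 7120, Cd79b, and Cd72, a surface inhibitor (log2 fold change 0.50).

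The other B cell markers called higher were Blk (log2 fold change 5.55), Ebf1 (4.22), Bank1 (2.92) and Ralgps2 (1.91). Blk and Ebf1 were under 10 normalized counts in each library labelled WT and passed the filter only through those labelled knockout. Ms4a1 and Pax5 were among the B cell markers that did not pass or were not tested. Ms4a1, which encodes CD20, had 0 and 18.4 against 10.8 and 12.7. Pax5, the factor of B cell identity, had 6.11 and 0 against 3.92 and 6.81. Cd22 had 105 and 98.0 against 108 and 100.3, and Cd79a is given above. Vpreb3, Fcer2a and Fcmr did not pass and Cr2 was not tested, none of them above 32.3 normalized counts in any library.

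Plasma cell markers were mixed, with 4 of 10 tested higher, 2 lower and 4 not past the test, and sums of 23581 and 22426 against 40952 and 41176. Their median log2 fold change was 0.30 without the labelled knockout replicate 1 and 0.24 without the labelled knockout replicate 2. Besides Xbp1 and Mzb1 the higher ones were Txndc5, a secretory pathway enzyme (log2 fold change 1.55), and Sdc1, which encodes CD138, with 13.2 and 46.0 against 207 and 149. The lower ones were Slamf7 (-0.26) and Prdm1. Irf4 (0.23), Derl3 (-0.08), Fkbp11 (-0.64) and Cd93 (0.31) did not pass, Tnfrsf17 was at 0 in every library, and Tent5c was not analysed here.

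Of 4 tested markers of B cell precursors 3 were higher, namely Cd24a (log2 fold change 4.28), Dntt and Il7r (0.25, and -0.05 under median centring). Vpreb1, a surrogate light chain gene, had 29.5 and 21.4 against 52.9 and 49.6 and did not pass (limma adjusted p = 0.068). Igll1, another surrogate light chain gene, had 0 and 0 against 18.6 and 6.81, and the listed Vpreb2 was at 0 in every library. The 8 listed genes summed to 13355 and 13495 against 26410 and 26493.

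Markers of plasmacytoid dendritic cells, the interferon-producing cells that depend on Tcf4, were higher throughout. All 15 tested were higher, with a median log2 fold change of 6.53 and sums of 19041 and 18895 against 314103 and 314163. With 1 library left out the median lay between 6.20 and 6.90. Siglech had 210 and 194 normalized counts against 84171 and 84408 (log2 fold change 8.70), Ccr9 a log2 fold change of 5.67 and Pacsin1 one of 4.31. Their part in the immunoglobulin result was not tested.

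T cell markers went the other way, with 13 of 14 lower, none higher and a median of -0.63, and sums of 748271 and 738147 against 507128 and 516908. Cd3d (log2 fold change -0.81), Cd3g (-0.75) and Cd8b1 (-0.60), parts of the T cell receptor complex and its coreceptor, had the smallest adjusted p. Of 9 macrophage markers, 1 was higher (Cd68, 2.62), 5 lower and 3 did not pass, with C1qb (-1.53), C1qa (-1.38) and Mrc1 (-1.50) among those lower. The macrophage median was -0.95 without the labelled knockout replicate 1 and -1.30 without the labelled knockout replicate 2.

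The authors' deposited table gave an adjusted p for 35 of the members. Of these, 21 were higher in the knockout columns and none lower at the same threshold, and 19 of them were the members called here. Both results come from the same 4 libraries, so the overlap is no separate support. The share of all genes called in the authors' table is not given here.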

How the data were processed

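Polyadenylated RNA of 4 mouse CD8+ T cell libraries was measured, 2 labelled WT and 2 labelled Irf8 knockout, grouped by title and genotype. The submitters' processing notes name Trim Galore 0.4.4, HISAT2 2.2.1, StringTie 2.1.4, DESeq2 and mm10, with no roles. Annotation, settings and strand were not given in the sources used here. Deposited were normalized counts, a signal, per library. The table also gives the authors' log2 fold change and its error, their ratio as a score, and p-values, raw and adjusted, per the file headers. Those log2 values are WT over knockout and are not printed.

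Each column was whole multiples of a step (100.0% of values within 0.01 reads), so reads were recovered by dividing by it. Totals were 58899365 to 59724952 reads with size factors of 0.979 to 1.03. Intervals (95% level, exact) and the floor of 3 reads per library cover counting error only.

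The test was limma 3.58.1 in R 4.3.3 (eBayes, trend and robust) on log2(normalized count + 1). Genes with at least 10 in at least 2 libraries were kept (18378), and two-sided p-values were Benjamini-Hochberg adjusted over these, with a threshold of 0.05. Fold changes on this scale understate changes of low genes. The fit was tested on simulated data. Alternatives were pseudocounts of 0.1 and 10, no filter, a minimum of 50, median centring, a replicate block, each library left out, limma without robust variance, and edgeR 4.0.16 (TMM, upper-quartile) and DESeq2 1.42.0 on recovered reads.

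Replicate numbers did not pair libraries, with a correlation of same-numbered deviations of 0.02 over the 18378 genes. All 69 members matched a GENCODE M21 symbol once. Members and lists were chosen with earlier results of these data known. The text names Irf8, every constant gene and Jchain, the 5 V segments with the highest mean per locus, D and J segments with a mean of at least 10, every member that passed, up to 3 higher and 3 lower genes per list by adjusted p, and each B or plasma cell marker that did not pass. Other genes were named after their values were seen. A few genes that the rule takes are not reported here.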

Additional observations from a re-analysis of the deposited data

How the results depend on the processing

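Calls of immunoglobulin genes were fewer without a library labelled knockout, as were calls over all genes, and also depended on the treatment of low values. With each library left out in turn, the genes called higher ranged from 10 to 19 among the members and from 1309 to 4137 among all genes, those called lower stayed at 0 among the members and ranged from 630 to 2759 among all genes, and the ratio of summed member levels lay between 6.62 and 6.95. A minimum of 50 left 12 members to test, and all 12 were called higher, beside 3454 genes called higher and 2665 lower over all genes. All of the 12 except Ighm and Igkc reached that minimum only in the libraries labelled knockout and so had to differ. Without the filter 22 members were called higher and 1 lower. Median centring called 2389 genes higher and 7210 lower, with the same 19 member calls. The summed ratio was 18.4 without Ighm, the most abundant member, and 7.08 in RPM. With 1 library left out, the log2 fold change of Iglv2 ranged from -0.26 (without the labelled WT replicate 2) to 1.74, and the summed heavy V ratio from 0.366 to 1.04 (without the labelled WT replicate 1). A pseudocount of 0.1 gave 15 member calls, losing Iglv1, Jchain, Iglj3p and Igkv6-15. edgeR without the filter, chosen after seeing the data, gave 18, losing Jchain. edgeR with TMM or upper-quartile factors, DESeq2, limma without robust variance and a pseudocount of 10 each gave 19. The libraries share replicate numbers only: with the replicate block 19 members were higher and 0 lower, and over all genes 3415 higher and 2168 lower. Depth limits the 34 members with at most 10 reads, for which no difference could be shown.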
